A study of Mus musculus with 8 samples.

Results

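The Z-disc is the border of the sarcomere, where thin actin filaments of neighbouring sarcomeres are cross-linked by alpha-actinin. Smaller proteins bind to that lattice: myozenins hold the phosphatase calcineurin there, telethonin caps the end of titin, and PDZ and LIM domain proteins connect it to signalling and to the rest of the cytoskeleton. Several of these proteins come in forms that differ between muscle fibre types: Actn3, Myoz1 and Myoz3 are forms of fast fibres, whereas Actn2 is present in all fibres and in heart, and Myoz2 is the form of slow fibres and heart.

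These genes, 10 in all, were taken by name from a table of 19857 genes: the alpha-actinins Actn2 and Actn3, the myozenins Myoz1, Myoz2 and Myoz3, and Tcap, Ldb3, Pdlim3, Myot and Csrp3. All 10 were found and all 10 passed the filter on low counts. Actn3, Myoz1 and Myoz3 form the 3 fast-fibre members, and the remaining 7 are called the other members. Each library was made from 40 frozen sections through the median region of the tongue of a female mouse aged 12 months. The mice were 4 wild type (WT) animals and 4 heterozygous for the A17 allele of Pabpn1 (A17/+). PABPN1 is the poly(A) binding protein of the nucleus, and the A17 allele lengthens its alanine stretch, as in the inherited disease oculopharyngeal muscular dystrophy. The labels give no strain and name no further allele or agent for either group. RNA was counted near its 3′ end as unique molecular identifiers (UMIs), so that copies from amplification count once.

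The libraries held 205696 to 465014 UMIs in WT and 395061 to 485326 in A17/+ (two-sided exact permutation p = 0.114). Genes whose longest coding transcript is under 1000 nucleotides took 4.32% to 6.42% of UMIs in WT and 6.23% to 8.90% in A17/+, with overlap (exact permutation p = 0.0571). Skeletal muscle markers were abundant in every library, with a summed level of 65255 to 85682 CPM (counts scaled to a common library size by TMM) in WT and 81317 to 102116 in A17/+ (exact permutation p = 0.0857, adjusted over 11 marker lists 0.118). Of the heart markers, Nppa, Tnni3 and Myl7 were not in the table, and Myh6 had 0 to 2 UMIs per library. The altered gene, Pabpn1, had 15, 4, 6 and 6 UMIs in WT and 9, 9, 5 and 11 in A17/+, and its level did not differ beyond the spread (exact permutation p = 0.857). Counts near the 3′ end do not read the altered stretch, so they do not check the genotype.

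Of the 10 members, 6 rose in A17/+ and 0 fell (edgeR quasi-likelihood test, adjusted p under 0.05). Of all 5066 genes tested, 6.34% were called higher and 2.61% lower, 8.94% in all. At an unadjusted p under 0.05, 8 members differed, against 25.1% of all genes tested. The members that rose were Ldb3, Myoz1, Tcap, Actn3, Myoz3 and Actn2. Their log2 fold changes ran from 0.79 to 1.99, and the median over all 10 was 0.84, against 0.01 over all genes tested. In 5 members, all 4 A17/+ libraries lay above all 4 WT libraries, as did 8.57% of all genes tested, and the groups did not overlap in either direction in 14.6%. All 3 fast-fibre members and 3 of the 7 other members were called, with medians of 1.27 and 0.79. Whether the fast-fibre and other members differ was not tested, since the members were chosen with results known. The count was 7 without WT 1 or without both libraries numbered 1, 4 without WT 2, and 3 without any of WT 3, WT 4, A17/+ 3 or A17/+ 4.

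**Figure D1:**
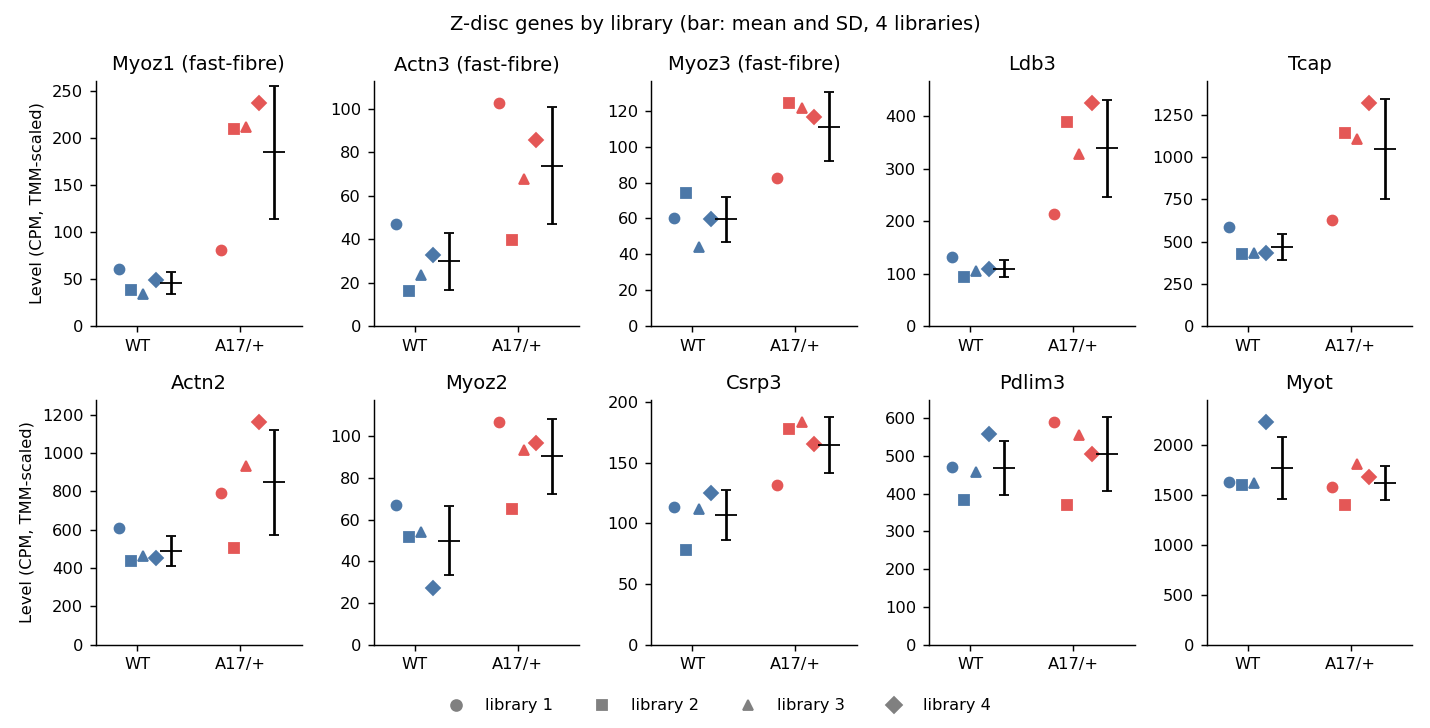
Level of each of the 10 members in CPM with TMM scaling (vertical axis from 0, its own scale for each gene) in the 4 WT and 4 A17/+ libraries, numbered 1 to 4. Points are libraries, and bars are the mean ± SD (n = 4). In Ldb3, Myoz1, Myoz3, Tcap and Csrp3 the A17/+ points all lie above the WT points, and in Myot and Pdlim3 the groups overlap.

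Promoter sequence was at hand for 5 members, with 7 start sites, from RefSeq on GRCm38.p6. It is shown for 2 members past the threshold (Ldb3, Actn2) and 2 that were not (Myoz2, Pdlim3), to be read side by side. Actn2 and Myoz2 fell on different sides of the threshold, yet both had a log2 fold change of 0.79. Each line gives the 250 bases before a start site, 5′ to 3′ on the gene's strand, at chr14:34588682-34588931 (Ldb3, minus strand), chr13:12340733-12340982 (Actn2, minus), chr3:123034988-123035237 (Myoz2, minus) and chr8:45885237-45885486 (Pdlim3, plus). Capitals mark matches, on either strand, to short motif patterns, of which muscle regulators bind some forms.
Ldb3: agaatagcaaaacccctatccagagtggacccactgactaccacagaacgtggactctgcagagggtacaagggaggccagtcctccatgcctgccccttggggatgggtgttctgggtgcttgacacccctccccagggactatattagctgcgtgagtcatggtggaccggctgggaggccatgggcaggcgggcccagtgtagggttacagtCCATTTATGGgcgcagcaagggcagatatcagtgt
Actn2: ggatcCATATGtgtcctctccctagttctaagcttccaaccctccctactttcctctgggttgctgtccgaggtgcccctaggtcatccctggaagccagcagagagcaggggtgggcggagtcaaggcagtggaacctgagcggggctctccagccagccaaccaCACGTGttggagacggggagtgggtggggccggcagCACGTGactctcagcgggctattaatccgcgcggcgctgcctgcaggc
Myoz2: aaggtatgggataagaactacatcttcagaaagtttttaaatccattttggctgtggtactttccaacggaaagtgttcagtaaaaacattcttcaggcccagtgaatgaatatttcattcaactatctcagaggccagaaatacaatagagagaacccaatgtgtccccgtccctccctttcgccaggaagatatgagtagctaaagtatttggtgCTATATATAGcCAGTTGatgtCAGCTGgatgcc
Pdlim3: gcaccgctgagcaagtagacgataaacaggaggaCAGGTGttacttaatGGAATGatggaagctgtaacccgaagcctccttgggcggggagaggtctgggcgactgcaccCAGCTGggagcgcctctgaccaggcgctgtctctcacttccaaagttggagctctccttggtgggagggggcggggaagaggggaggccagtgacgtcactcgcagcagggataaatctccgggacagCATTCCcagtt

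The capitals before Ldb3 are a CArG box, the motif of serum response factor, 35 to 26 bases before the start. It was also present before the second Ldb3 start, whose window overlaps the first, and 1.47% of 32851 promoters of the same length hold it. The capitals before Actn2 are 3 matches to the general E-box pattern (CANNTG), which 66.2% of promoters hold. MyoD and its relatives bind some forms of that pattern, and whether they bind these 3 was not tested. Myoz2 has a MEF2 motif 33 to 24 bases before its start, held by 2.92% of promoters, and 2 E-boxes that follow it. Pdlim3 has 2 E-boxes and 2 M-CAT motifs (CATTCC), the latter held by 12.6% of promoters. TATAAA was found in 0 of the 7 member promoters, against 12.4% of all. Of the 2 called genes with a promoter, Actn2 held E-boxes and Ldb3 held 0 at either start. The 3 that were not called (Csrp3, Myoz2, Pdlim3) each held E-boxes. With E-boxes in 5 of the 7 member promoters and in 66.2% of all, no contrast between called and uncalled genes was drawn.

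Among the PDZ and LIM domain proteins, Ldb3 rose and Pdlim3 was not called. Ldb3 (also known as Cypher or ZASP; chr14:34526603-34588682 on mm10, minus strand) binds alpha-actinin through its PDZ domain, and its loss disrupts the Z-disc. Its level was 131, 93.7, 105 and 108 CPM in the WT libraries 1 to 4, and 214, 390, 328 and 425 CPM in the A17/+ libraries 1 to 4. The groups did not overlap, and A17/+ 1 was the lowest of its group. The mean rose from 110 ± 15.9 to 339 ± 92.5 CPM (SD, n = 4 each), a log2 fold change of 1.61 (SE 0.23, 95% interval 1.13 to 2.1, edgeR adjusted p = 0.00192). Annotated coding transcripts of Ldb3 end in 2 places, 5 at 34526603 to 34529458 and 2 at 34561261 to 34561272, and the counts sum both.

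Pdlim3 (ALP; chr8:45885461-45919548, plus strand), which likewise binds alpha-actinin, had 470, 385, 457 and 558 CPM in WT and 591, 370, 557 and 505 CPM in A17/+. The groups overlapped, and A17/+ 2 was lower than every WT library. The log2 fold change was 0.12 (95% interval -0.25 to 0.49, edgeR adjusted p = 0.725). Within each library, the log2 ratio of Ldb3 to Pdlim3 lay between -2.36 and -1.84 in WT and between -1.46 and 0.08 in A17/+, so that the groups did not overlap.

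Of the 3 myozenins, Myoz1 and Myoz3 rose and Myoz2 was not called. Myoz1 (chr14:20649107-20656540, minus strand), which ties calcineurin to alpha-actinin in fast fibres, had 60.2, 38.8, 33.8 and 48.8 CPM in WT and 80.3, 209, 212 and 237 CPM in A17/+. The A17/+ libraries 2 to 4 stood close together, and A17/+ 1 lay far below them but above WT. The log2 fold change of 1.99 (SE 0.33, 95% interval 1.29 to 2.68, edgeR adjusted p = 0.00298) was the highest of the 10.

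Myoz3 (chr18:60573750-60591788, minus strand) had 60.2, 74.3, 44.0 and 59.6 CPM in WT and 82.5, 124, 121 and 117 CPM in A17/+. The groups did not overlap, and A17/+ 1 was again the lowest of its group. Its log2 fold change was 0.89 (SE 0.25, 95% interval 0.37 to 1.41, edgeR adjusted p = 0.0310). The call is a fragile one: it held in 10 of 22 alternative analyses, and was lost without any of WT 3, WT 4, A17/+ 2, A17/+ 3 or A17/+ 4, with adjusted p from 0.0538 to 0.120.

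Myoz2 (chr3:123006206-123035015, minus strand), the slow-fibre and heart form, had 66.9, 51.7, 54.1 and 27.1 CPM in WT and 107, 65.0, 93.2 and 96.9 CPM in A17/+. A17/+ 2 lay below the highest WT library, and the other 3 lay above it. The log2 fold change was 0.79 (95% interval 0.21 to 1.37, edgeR adjusted p = 0.0763), and the gene was called without WT 1 (adjusted p = 0.0470) or without A17/+ 2 (adjusted p = 0.0414). Its interval overlaps that of Myoz3 widely and that of Myoz1 only from 1.29 to 1.37. Whether Myoz2 differs from either was not tested, and a missed threshold alone does not set it apart. The log2 ratio of Myoz1 to Myoz2 averaged -0.10 in WT and 0.94 in A17/+, and A17/+ 1, at -0.42, lay within the WT range. The ratio of Myoz3 to Myoz2 averaged 0.30 in both groups.

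Both alpha-actinins rose. Actn2 (chr13:12269426-12340760, minus strand), the form present in all fibres, had 608, 436, 460 and 450 CPM in WT and 789, 506, 932 and 1163 CPM in A17/+. A17/+ 2 lay below WT 1, and the other 3 A17/+ libraries lay above all of WT. The log2 fold change was 0.79 (SE 0.22, 95% interval 0.33 to 1.24, edgeR adjusted p = 0.0304). The call held in 14 of 22 alternatives and was lost without any of WT 2, WT 3, WT 4, A17/+ 3 or A17/+ 4 (adjusted p from 0.0942 to 0.146).

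Actn3 (chr19:4861216-4877909, minus strand), the form of fast fibres, was counted with few UMIs: 21, 5, 7 and 6 in WT and 46, 14, 24 and 30 in A17/+. Its level was 46.8, 16.2, 23.7 and 32.5 CPM in WT and 103, 39.5, 67.8 and 85.5 CPM in A17/+, and A17/+ 2 lay below WT 1. The log2 fold change was 1.27 (SE 0.36, 95% interval 0.51 to 2.02, edgeR adjusted p = 0.0356). The call held in 13 of 22 alternatives, and was lost without any of WT 2, WT 3, WT 4, A17/+ 1, A17/+ 3 or A17/+ 4 (adjusted p from 0.0700 to 0.126). The log2 ratio of Actn3 to Actn2 averaged -4.13 in WT and -3.54 in A17/+, and the groups overlapped.

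Tcap (chr11:98383811-98384953, plus strand) encodes telethonin, the cap of titin. It had 584, 427, 433 and 433 CPM in WT and 629, 1147, 1110 and 1320 CPM in A17/+. WT 1 stood above the other WT libraries and A17/+ 1 only just above WT 1. The log2 fold change was 1.15 (SE 0.21, 95% interval 0.72 to 1.59, edgeR adjusted p = 0.00404). The Tcap transcript is short, at 948 nucleotides. With the trend of log2 level with transcript length removed from each library, the log2 fold change of Tcap was 0.28 with the longest transcript of any kind (adjusted p = 0.302) and 0.33 with the longest coding transcript (adjusted p = 0.219), so the call was lost. The same steps gave 1.34 and 1.39 for Myoz1, at 1289 nucleotides, both past the threshold.

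Csrp3 (chr7:48830398-48848033, minus strand), the muscle LIM protein, had 114, 77.6, 112 and 125 CPM in WT and 132, 178, 184 and 165 CPM in A17/+. The groups did not overlap, yet the gene was not called, at a log2 fold change of 0.63 (95% interval 0.16 to 1.09, edgeR adjusted p = 0.0821). It was called without both libraries numbered 1 (0.77, adjusted p = 0.0357). Its longest coding transcript, at 899 nucleotides, is the shortest of the 10, and with the trend of coding length removed the value was -0.21 (adjusted p = 0.616). Myot (chr18:44334074-44355724, plus strand), myotilin, which cross-links actin, had 1629, 1606, 1624 and 2238 CPM in WT and 1581, 1406, 1817 and 1685 CPM in A17/+. The groups overlapped, and the log2 fold change was -0.13 (95% interval -0.46 to 0.21, edgeR adjusted p = 0.673). That interval leaves out a rise of the size seen in Ldb3, Myoz1 or Tcap.

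**Figure D2:**
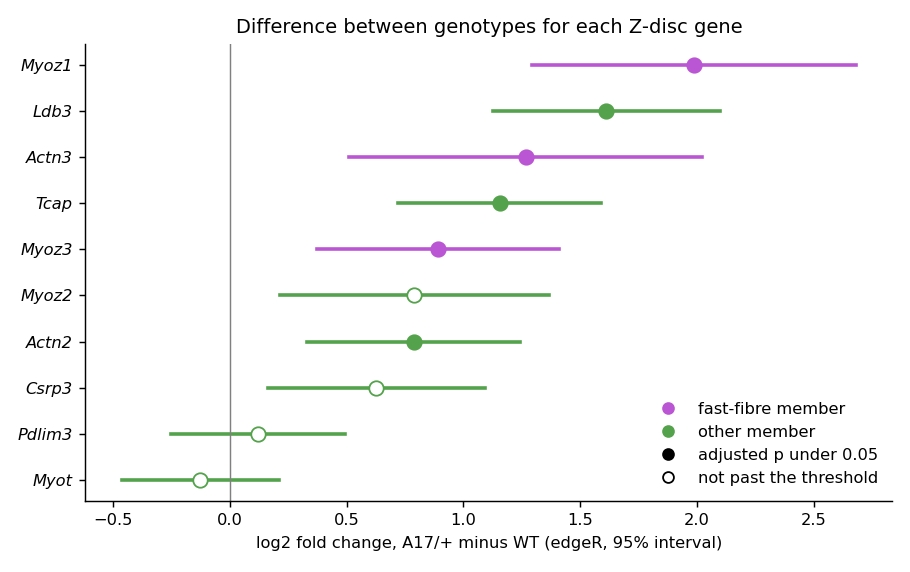
Log2 fold change, A17/+ over WT, of each member with its 95% interval from edgeR (horizontal axis), for the fast-fibre (purple) and the other members (green). Filled points passed an adjusted p of 0.05 and open points did not. Myoz1 and Ldb3 lie farthest to the right, at 1.99 and 1.61, and the intervals of Myot and Pdlim3 include 0.

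Per kilobase of the longest coding transcript, the order of levels in WT was Myot (803 CPM per kb), Tcap (495), Pdlim3 (291), Actn2 (162), Csrp3 (119), Myoz2 (42.3), Myoz1 (35.2), Ldb3 (21.4), Myoz3 (17.3) and Actn3 (10.3). Neighbours whose ranges overlapped were Myoz2 and Myoz1, Ldb3 and Myoz3, and Myoz3 and Actn3. In A17/+, Tcap came first with 1109 CPM per kb and Myot next with 734, with overlapping ranges. The order depends on the transcript taken: with longer annotated forms that are not coding, Pdlim3 was at 132 in WT, below Actn2, and Csrp3 at 43.9. Since each RNA is counted near its 3′ end, division by length is a convention here. Of the members' summed level in CPM, Myot made up 49.2% ± 4.80 in WT and 32.7% ± 3.21 in A17/+ (SD, n = 4 each), and Tcap 13.1% ± 1.99 and 20.9% ± 4.76.

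The 3 fast-fibre members together had 135 ± 27.2 CPM in WT and 370 ± 74.6 in A17/+, and the other 7 had 3466 ± 384 and 4621 ± 671 (SD, n = 4 each). The log2 ratio of the first sum to the second was -4.43, -4.57, -5.00 and -4.81 in WT and -3.93, -3.45, -3.65 and -3.61 in A17/+. The groups did not overlap, and the means differed by 1.04, or 2.06-fold. With Myoz1 left out the difference was 0.66, and with Myot left out of the other members 0.64. Among the other members, Ldb3 and Tcap had larger estimated fold changes than the fast-fibre Myoz3, with overlapping intervals. In all, 9 ratios were computed, and none was tested.

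**Figure D3:**
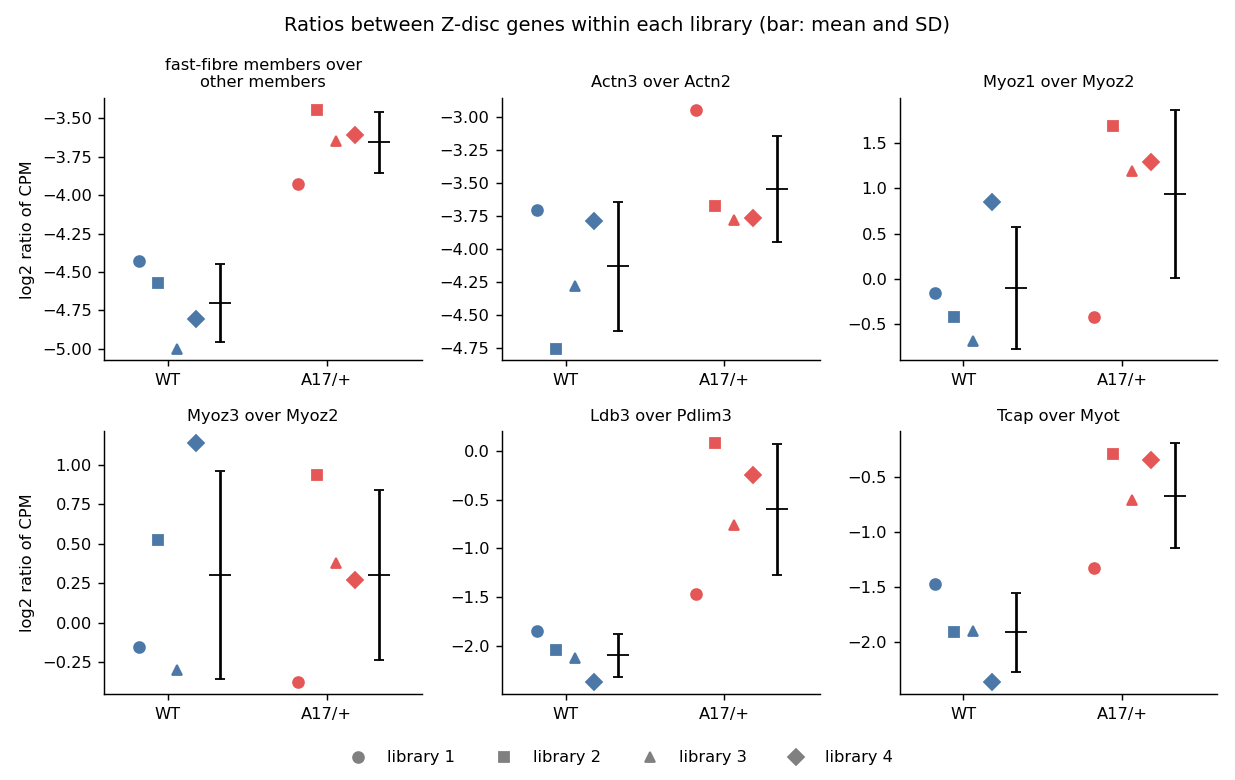
Log2 ratios of CPM within each library (vertical axis, its own scale in each panel) for 6 of the ratios, in the 4 WT and 4 A17/+ libraries. Points are libraries, and bars are the mean ± SD (n = 4). The ratio of summed fast-fibre members to summed other members lies between -5.00 and -4.43 in WT and between -3.93 and -3.45 in A17/+.

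The A17/+ libraries differed among themselves in an order that split the members. A17/+ 1 was the lowest of its group for Ldb3, Myoz1, Myoz3, Tcap and Csrp3, and A17/+ 2 for Actn2, Actn3, Myoz2, Myot and Pdlim3. The first 5 are also those whose groups did not overlap. From A17/+ 1 to A17/+ 2 the log2 level differed by 1.38 for Myoz1 and by -1.37 for Actn3, both fast-fibre members. This division was seen in the values and is a description only.

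**Figure D4:**
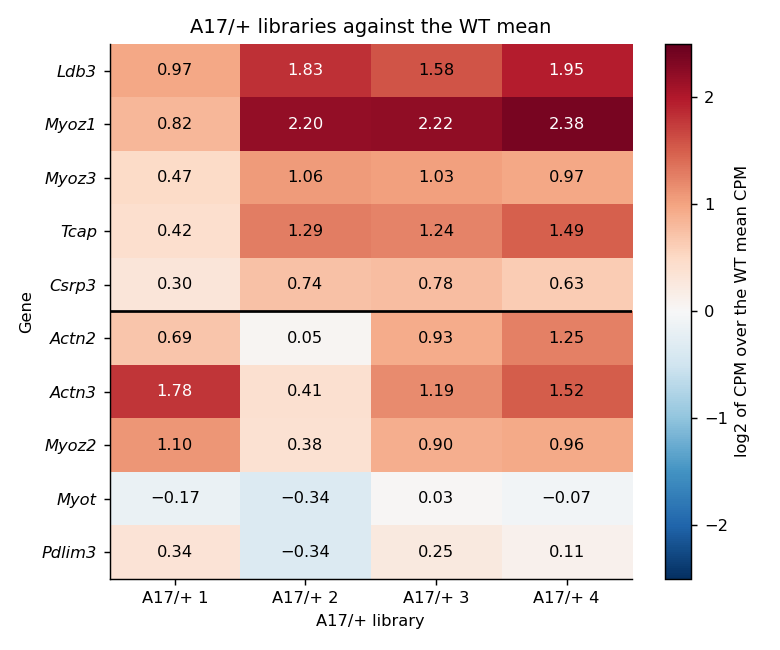
Heat map of the log2 level of each member (rows) in the 4 A17/+ libraries (columns) relative to the WT mean in CPM, printed in each cell and coloured red above 0 and blue below it; the black line parts the sets of 5 described above. A17/+ 1 is lowest for Ldb3, Myoz1, Myoz3, Tcap and Csrp3, and A17/+ 2 for Actn2, Actn3, Myoz2, Myot and Pdlim3.

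Other genes of the Z-disc were read from a list of 44, of which 37 were tested. In A17/+, 9 rose and 0 fell, where 6.34% of all genes tested were called higher and 2.61% lower. The median log2 fold change was 0.40, against 0.01 over all genes tested. Des, the intermediate filament that links Z-discs, rose from 371 ± 124 to 931 ± 282 CPM (SD, n = 4 each; log2 1.31, edgeR adjusted p = 0.00796). Nrap, which takes part in myofibril assembly, rose by 0.96 (edgeR adjusted p = 0.00486), and Smpx by 1.37 (edgeR adjusted p = 0.00765). Fhl3, a LIM domain protein, rose by 2.34 (edgeR adjusted p = 0.00827). It was at 22.3, 19.4, 20.3 and 10.8 CPM in WT and 26.8, 124, 110 and 140 CPM in A17/+. Its WT levels all lay below the filter on low counts, so it was tested only through A17/+. That limits what its p can show. The chaperone Cryab, the ubiquitin ligases Trim54 and Trim63, Mlip and the actin-severing Cfl2 made up the rest. Among these called genes the groups overlapped for Smpx and Cfl2. The number that rose was 15 without both libraries numbered 1, and 5 without WT 3 or without A17/+ 4. Des is also made by smooth muscle. The other smooth muscle markers (Acta2, Myh11, Tagln and Cnn1) summed to 459 to 520 CPM in WT and 444 to 664 in A17/+, with overlap (exact permutation p = 0.457). Myh11 made up most of that sum and was not called (log2 -0.17, edgeR adjusted p = 0.564). Acta2 was itself called higher (log2 1.13, edgeR adjusted p = 0.0169). Which cells the Des counts came from was not tested.

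**Figure D5:**
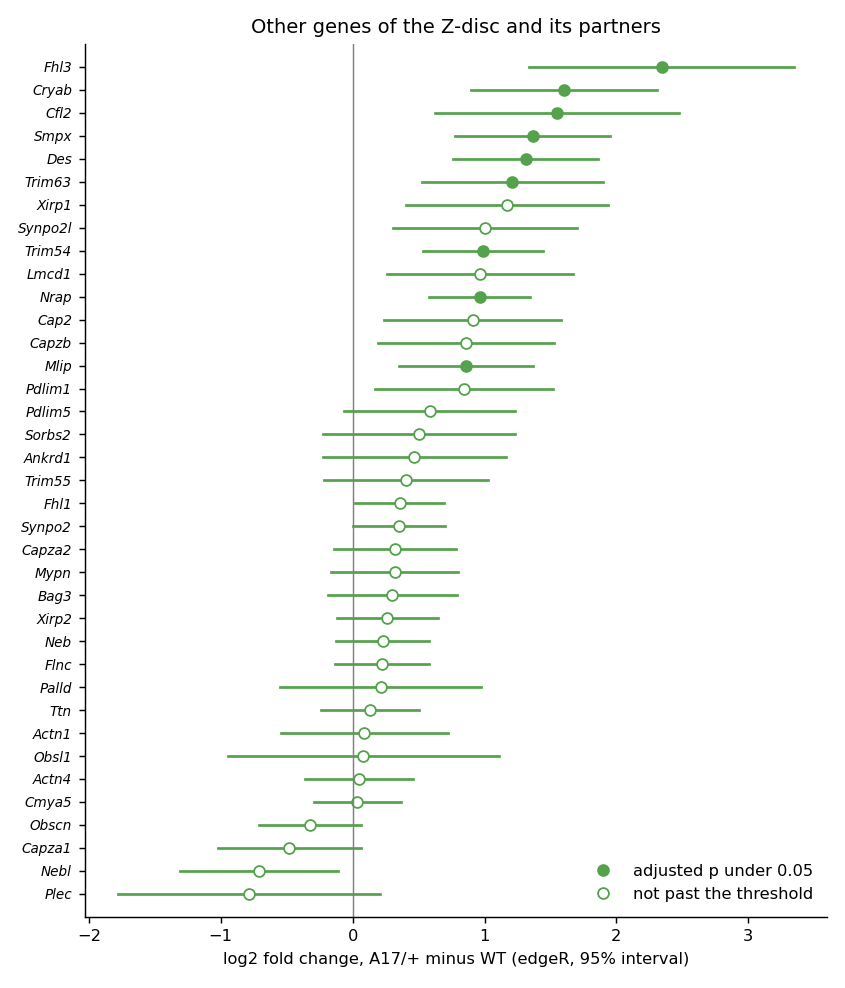
Log2 fold change, A17/+ over WT, of the 37 other Z-disc genes tested, in order of size, with 95% intervals (edgeR). Filled points passed an adjusted p of 0.05. The 9 called genes are all above 0, and the median is 0.40. Of all genes tested, 6.34% were called higher.

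Of the genes around calcineurin, which the myozenins bind, 12 were tested from a list of 16. Mef2c, a transcription factor of muscle, rose by 0.56 (edgeR adjusted p = 0.0416) and 0 fell. That is 1 of 12, where 6.34% of all genes tested were called higher, and the median was 0.38. Of 17 other fast fibre genes, all tested, 11 rose and 0 fell, with a median of 0.93, where 6.34% of all genes tested were called higher. They included the calcium buffer Pvalb, at 4.43 ± 3.73 CPM in WT and 107 ± 55.5 in A17/+ (log2 4.35, edgeR adjusted p = 0.00278). Pvalb was at 8.91, 0, 3.38 and 5.42 CPM in WT, below the filter on low counts. It was tested only because its A17/+ levels were high, so its size and p carry little weight. The glycolytic or energy enzymes Pfkm (1.09), Pygm (1.39) and Ckm (1.09) were also called, with overlap of the groups for Ckm. The 3 fast myosin heavy chains of the list, which mark the fibre types most directly, did not pass: Myh4 was at 18267 ± 2531 CPM in WT and 18152 ± 2062 in A17/+ (log2 -0.0090, adjusted p = 0.983), and Myh1 and Myh2 differed by 0.52 (adjusted p = 0.102) and 0.43 (adjusted p = 0.515). Of the slow fibre list, 3 of 11 were tested: Tpm3 fell by 0.92 (adjusted p = 0.0359), and Atp2a2 and Casq2 were not called. The groups overlapped for Tpm3, and which cells of the tissue its counts came from was not tested. The other 8, among them Myl2, Tnni1 and Tnnt1, were not tested. Only 7 of the 11 were in the table, so some of the 8 were absent from it and the rest fell below the filter.

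Likeness was measured by the root mean square difference of centred log2 levels over the 8 libraries, among 3184 genes with a mean of at least 50 CPM over all 8. The genes most like the summed fast-fibre members were Atp1b1 (0.139), Vdac1 (0.140), Ndufa9 (0.188), Got1 (0.190) and mt-Nd1 (0.205). In A17/+ that sum averaged 370 CPM, of which Myoz1 gave 184, so the likeness weighs Myoz1 most there. Those most like the summed other members were Hspb7 (0.067), Map4 (0.084), Efcab14 (0.085), Phtf2 (0.093) and Fhl1 (0.104). Ndufa9, Got1 and Efcab14 averaged 45.1, 48.1 and 48.2 CPM in WT, so they reached the floor of 50 CPM only through A17/+.

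In bulk sections of tongue, more muscle cells and more RNA per muscle cell cannot be told apart. Set against the summed skeletal muscle markers of the same library, of which Ttn made up 80.6% and Neb 12.1% in WT, the log2 difference was 1.32 for Ldb3, 1.67 for Myoz1 and 0.63 for Myoz2, without overlap of the groups. It was 1.06 for Actn3, 0.85 for Tcap, 0.63 for Myoz3, 0.47 for Actn2 and 0.36 for Csrp3, with overlap, so that Tcap, Myoz3 and Csrp3 did not keep the separation they had in CPM. Myot and Pdlim3 were at -0.40 and -0.17. The other 6 markers are those that rose, so against their sum every difference was lower by the same amount, fixed by that choice. Ldb3 was then at 0.32 without overlap. With overlap, Myoz1 was at 0.67, Actn3 at 0.06, Tcap at -0.15, Myoz2 and Myoz3 at -0.36 and Actn2 at -0.53. Relative to these markers, Csrp3 (-0.64), Pdlim3 (-1.17) and Myot (-1.39) lay below WT in every A17/+ library. Of the 8 skeletal muscle markers 6 rose, among them Acta1 (1.68) and Mb (2.46), while Ttn (0.13) and Neb (0.23) did not pass the test. The summed level of markers of fibroblasts, endothelial cells, adipocytes, red blood cells and satellite cells with nerve was also above every WT library in all 4 A17/+ libraries (exact permutation p = 0.0286 each, adjusted 0.0524). Their part in the members' values was not tested.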

How the data were processed

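RNA of 8 tongue libraries, 4 per genotype, was sequenced by mcSCRB-seq, and 1 deposited table holds raw counts of UMIs per Ensembl gene. The submitters' processing notes name cutadapt 2.10, STAR 2.7.5a, UMI-tools 1.1.1, HTSeq and the build mm10. Strand, settings and annotation release are not given in the sources used here. The authors also deposited log2 values of 10709 genes per library, which were used in 1 alternative only.

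Symbols, positions and transcript lengths came from GENCODE M21 (mm10), which named 19675 of the 19857 genes and left 182 with identifiers alone. Genes were filtered with filterByExpr (minimum count 10, minimum total 15), scaled by TMM and fitted with genotype as the only term in edgeR 4.0.16 (robust quasi-likelihood test, R 4.3.3), with Benjamini-Hochberg adjustment over 5066 genes and a threshold of 0.05. A standard error is the log2 fold change over the root of its F statistic. Single measures were compared by two-sided exact permutation over 70 assignments (scipy 1.17.1), whose smallest p is 0.0286. Depth limits low genes: Actn3 rested on 5 to 46 UMIs per library.

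The members and gene lists were chosen with earlier results of these data known. Named genes are the 10 members, Pabpn1, up to 4 called genes of each list with the smallest p, and the 5 genes most like each member sum. Others were named after their values were seen. Alternatives were other scalings and filters, the replicate block, each library left out, limma 3.58.1 and DESeq2 1.42.0, removal of the length trend or of mitochondrial transcripts, thinning to the smallest library, and both libraries numbered 1 left out. For the lists of other Z-disc and fast fibre genes they were added after seeing the data, as were the trend of the longest coding transcript, the smooth muscle markers without Des and the skeletal muscle markers without Ttn and Neb. The fit was tested on simulated data. The labels count separate mice. No 2 libraries of a group were alike within sampling noise (chi-square per degree of freedom 1.43 to 8.19).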

Additional observations from a re-analysis of the deposited data

Results flagged for a closer look

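In 3 of 22 sets of 4 libraries examined, 1 library lay far from the other 3 of its genotype, by the size of its gap over the range of the set. Chance alone marks about 1 in 20 such sets. Actn2 was 608 CPM in WT 1, against 460 CPM in the next WT library. Tcap was 584 CPM in WT 1, against 433 CPM in the next. Myot was 2238 CPM in WT 4, against 1629 CPM in the next. WT 1 was also the library with salivary gland markers, at 2057 CPM summed against at most 10.2 CPM in the other WT libraries and 14.1 to 57.0 CPM in A17/+. Without WT 1, 7 members rose rather than 6.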

How the results depend on the processing

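Ldb3 and Myoz1 were called in 22 of 22 alternatives and Tcap in 20, and 0 members were called lower in any. The number of members that rose was 3 with the length trend removed and 3 by limma-voom, and 3 to 7 when a library was left out. Genes called in all, 453, became 853 with no filter, 1025 without both libraries numbered 1, 265 after thinning, 233 by limma-voom, 808 by limma-trend on the deposited log2 values, and 210 to 890 with a library left out (890 without WT 1, 771 without A17/+ 1, 210 without WT 3, 247 without A17/+ 3, 232 without A17/+ 4). The 321 higher and 132 lower genes became 279 and 289 with library totals only, which moved the median by -0.12, 264 and 257 with the length trend removed, and 273 and 252 with that of coding length. Other Z-disc genes that rose numbered 15 without both libraries numbered 1, 5 after thinning, 5 by limma-voom and 5 to 13 with a library left out, and fast fibre genes 7 with the length trend removed. The difference between fast-fibre and other members was 0.66 without Myoz1, 0.67 as a mean of fold changes, and 0.95 to 1.14 with a library left out. Myot turned to 0.0053 after thinning, and Pdlim3 to -0.010 without A17/+ 1, within -0.010 to 0.24 with a library left out. With the coding length trend removed, Csrp3 turned to -0.21 and Pdlim3 to -0.27, and 5 members rose. The cause of these changes was not tested. Deviations of same-numbered libraries correlated at 0.0041, 0.072, -0.10 and -0.16, and 0 of 8 libraries correlated best with its own number, so the numbers were not taken to pair the mice. With the replicate block 410 genes and 5 members were called, Myoz3 being lost (adjusted p = 0.0572). No other pseudocount was tried, since every sum was above 0.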
